A study of Homo sapiens with 6 samples.

Results

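The 10 genes described here encode proteins that detect double-stranded RNA or cytosolic DNA, or that pass the signal on. They were selected by their role in sensing the kind of nucleic acid that a siRNA transfection brings into a cell, and are DDX58, IFIH1, DHX58, TLR3, EIF2AK2, ADAR, MAVS, ZBP1, CGAS and TBK1. All 10 symbols are rows of a table of 59653 genes. SK-OV3 cells, a human ovarian cancer line that lacks p53, were transfected with a pool of siRNAs against the lncRNA PVT1 (siPVT1) or with a non-targeting siRNA pool (siControl), and mRNA was sequenced 48 h later in 3 libraries of each group. Both groups received siRNA with a lipid reagent and no untransfected library was analysed here, so the comparison is of one siRNA pool with another. Each group stands for a single cell line and a single pool, and a response to lower PVT1 cannot be told apart from other effects of that pool. The labels do not say that replicates came from separate cultures, so the p-values measure the spread between these libraries.

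RIG-I (DDX58), MDA5 (IFIH1) and LGP2 (DHX58) are the RIG-I-like receptors, helicases that bind double-stranded RNA in the cytosol. RIG-I and MDA5 signal through MAVS on mitochondria to the kinase TBK1, which phosphorylates IRF3 and so turns on interferon genes, while LGP2 lacks the signalling domains and modulates the other two. TLR3 senses double-stranded RNA in endosomes, cGAS (CGAS) and ZBP1 sense DNA and Z-form nucleic acids, PKR (EIF2AK2) stops translation when it binds double-stranded RNA, and ADAR edits such RNA so that it escapes detection. Several of these genes are themselves induced by interferon through an interferon-stimulated response element (ISRE) in the promoter.

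The start-site windows that RefSeq gives on GRCh38.p14 (250 bases before to 50 bases after the start) were matched for 7 of the 10 genes, all but DHX58, ZBP1 and CGAS. They are shown because 3 of them hold an ISRE-like motif while the counts of these 3 genes moved differently. The motif, GAAA and GAAA with any 2 bases between them, read on both strands, was present in the windows of IFIH1, TLR3 and EIF2AK2, and in 3.57% of 35116 windows genome-wide. In the IFIH1 sequence, chr2:162318685-162318934 on the minus strand, the motif occurred from −159 to −150, from −153 to −144 (these matches overlap) and from −21 to −12, counted from the start site. The windows of TLR3 (chr4:186069142-186069171, plus strand) and EIF2AK2 (chr2:37156967-37156996, minus strand) span the start site, with the motif from −4 to 6 and from −6 to 4. DDX58 held no match to it, but held an NF-kB-like motif (GGGA and TTCC with any 2 bases between them) from −76 to −67 (chr9:32526253-32526282, minus strand), which IFIH1 also held and which occurred in 1.61% of windows. The GAS element (TTC and GAA with any 3 bases between them) occurred only in TLR3 among the 7 and in 7.66% of windows. Capitals mark the ISRE-like motif in the first 3 sequences and the NF-kB-like motif in the last.
IFIH1: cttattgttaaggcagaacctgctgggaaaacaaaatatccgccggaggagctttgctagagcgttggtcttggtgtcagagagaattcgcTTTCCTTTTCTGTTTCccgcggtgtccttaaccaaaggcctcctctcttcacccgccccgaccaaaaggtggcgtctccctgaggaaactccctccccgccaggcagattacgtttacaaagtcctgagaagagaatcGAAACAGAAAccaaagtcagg
TLR3: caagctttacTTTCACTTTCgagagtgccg
EIF2AK2: agtccaagggGAAAACGAAActgagaacca
DDX58: tcatttcctcGGAAAATCCCtgctttcccc

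Total counts ranged from 28383171 to 35059576 per library. Values are given as normalized counts, the deposited estimated counts divided by the library's relative size after TMM scaling. The quasi-likelihood test of edgeR was applied to 19008 genes, those that reached 5 normalized counts in 3 or more libraries. Differentially expressed means here that the p-value, adjusted by Benjamini-Hochberg, was below 0.05 and that the log2 fold change was 1 or more in either direction. By this rule 11.8% of tested genes were higher and 9.64% lower in siPVT1 (21.5% in all), and 55.1% of the calls were higher, against 43.8% when libraries were scaled by total count alone, which moved the median log2 fold change over tested genes from 0.00138 to −0.148. By the adjusted p alone, 29.5% of tested genes were higher and 28.4% lower (57.9% in all). PVT1 itself had 3298, 4090 and 3377 normalized counts in siControl and 2350, 2111 and 2062 in siPVT1, a log2 fold change of −0.72 (SE, the standard error, 0.0967, adjusted p = 0.000342 in edgeR). The siPVT1 libraries differed more among themselves than the siControl libraries did, with a chi-square between replicates, per degree of freedom, of 9.44 to 50.5 against 1.79 to 6.2, and siPVT1 replicate 3 stood furthest from replicate 1. Of markers of other cell types, CD3E and FCGR3A had 0 counts in every library and PTPRC and DCN had at most 3. The summed normalized counts of 10 immune markers were 799 to 993.1 in siControl and 613.6 to 926.5 in siPVT1. Most of this sum was CD68, with means of 583.6 and 720.7 (log2 fold change 0.30, adjusted p = 0.111 in edgeR). LYZ was uneven between libraries, with 19, 246 and 5 raw counts in siControl and 14, 79 and 13 in siPVT1. The summed normalized counts of 7 stromal and endothelial markers, led by CDH5, were 2152 to 2195 in siControl and 8915 to 11220 in siPVT1. Of these 7, 4 passed the filter on low counts in both groups. All 4 were differentially expressed as higher, beside 11.8% of all tested genes. PDGFRA was also called higher but passed the filter only through siPVT1, so its call is no result. Of the 4 immune markers tested, 2 passed the filter in both groups, ITGAM and CD68. ITGAM (log2 fold change −4.06, from 187.3 to 11.02 normalized counts on average) was differentially expressed as lower, beside 9.64% of all tested genes. CD14 (−1.42, from 7.658 to 2.782) was also called lower but passed the filter only through siControl, so its call is no result. The part of the genes of either list in the results below was not tested. All 8 markers of SK-OV3 cells were detected in both groups, with summed normalized counts of 164500 to 174700 in siControl and 225200 to 297000 in siPVT1. Most of the sum was VIM, with means of 136500 and 222100, so it says little of the other markers. Of the 8 markers, 4 were higher at an adjusted p under 0.05, of which KRT19 (log2 fold change 2.30) passed the fold threshold. KRT7 (−0.51) and ERBB2 (−0.43) were lower, and EPCAM and CDH2 did not pass.

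Of the 10 genes, 9 were tested. The RIG-I-like receptors DDX58, IFIH1 and DHX58 were higher in siPVT1 past both thresholds, and they made up all 3 of the differentially expressed members (3 of 9, where 21.5% of all tested genes passed and 11.8% were higher). By the adjusted p alone, MAVS was also higher, and TLR3, CGAS, TBK1 and ADAR were lower, so that 4 members were higher and 4 were lower, beside 57.9% of all tested genes that passed in either direction. EIF2AK2 did not pass either threshold, and ZBP1 was at the floor of at most 3 counts in each library. The median log2 fold change of the 9 tested members was −0.07. In 8 of the 9 the libraries of the groups did not overlap, 4 of them higher and 4 lower in siPVT1. That was also the case in 65.6% of all tested genes, 33.2% higher and 32.3% lower.

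**Figure D1:**
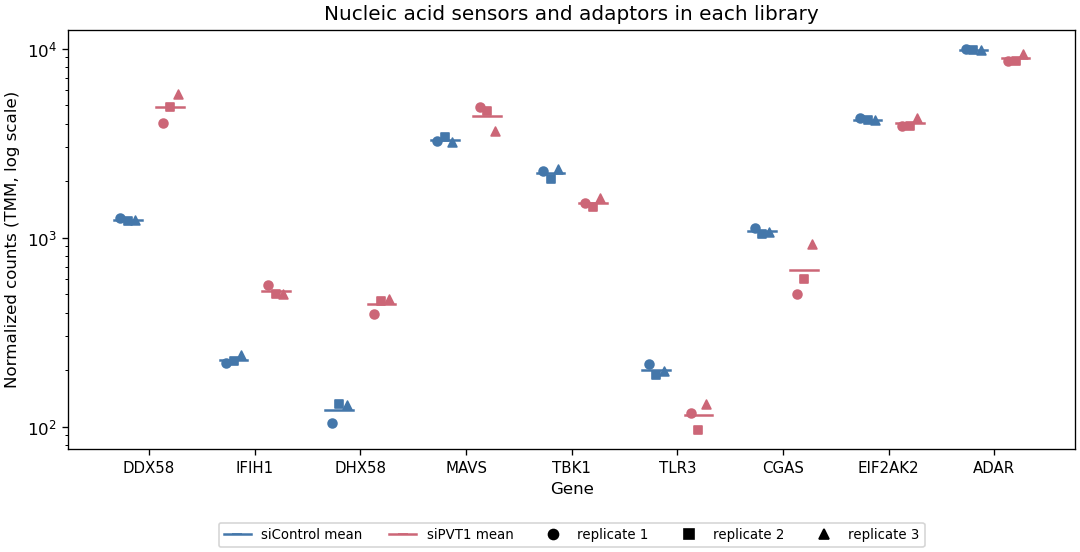
Normalized counts (log axis) of the 9 tested members in each of the 6 libraries, with siControl in blue, siPVT1 in red, the replicate number as the symbol and the group mean as a bar. DDX58, IFIH1, DHX58 and MAVS lie higher in all siPVT1 libraries, TLR3, CGAS, TBK1 and ADAR lie lower in all of them, and EIF2AK2 overlaps.

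DDX58 encodes RIG-I, which recognises short double-stranded RNA with 5′ phosphates. It lies on chromosome 9 from 32455302 to 32526208 on the minus strand (GENCODE v44, GRCh38, where it is named RIGI). Its normalized counts were 1263, 1227 and 1235 in siControl replicates 1 to 3 and 4058, 4907 and 5715 in siPVT1 replicates 1 to 3. The siControl libraries lay within a narrow range, the siPVT1 libraries were all far above it, and siPVT1 replicate 3 was the highest. The mean rose from 1242 ± 18.6 to 4893 ± 828 (SD, n = 3 each), which is 1.98 as a log2 fold change (SE 0.118, adjusted p = 5.74e-06 in edgeR) or 3.94-fold. In bulk RNA, more RNA per cell and more cells that express a gene cannot be told apart, here and for the other genes.

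IFIH1 encodes MDA5, which binds long double-stranded RNA, and lies on chromosome 2 from 162267074 to 162318684 on the minus strand. Normalized counts of 217.1, 221.2 and 238.3 in siControl compared with 562.4, 504.8 and 503.6 in siPVT1. Here the siPVT1 libraries stayed close together, with replicate 1 the highest. The log2 fold change was 1.21 (SE 0.0899, 95% interval 1.01 to 1.42, adjusted p = 1.58e-05 in edgeR), so the interval reached almost to the fold threshold. Tested directly against a 2-fold change, IFIH1 had an adjusted p of 0.0515 (edgeR glmTreat), where DDX58 and DHX58 had 0.000182 and 0.000475.

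DHX58 encodes LGP2 and lies on chromosome 17 from 42101404 to 42112714 on the minus strand. It had 104.8, 132.3 and 130.2 normalized counts in siControl and 394.2, 460 and 475.4 in siPVT1. Every siPVT1 library was thus above every siControl library, and the log2 fold change was 1.86 (SE 0.127, adjusted p = 1.06e-05 in edgeR) or 3.62-fold. The 3 receptors did not rise by equal amounts. The log2 ratio of IFIH1 to DDX58 counts within a library, in which scaling cancels, was −2.46 ± 0.0837 in siControl and −3.21 ± 0.332 in siPVT1 (SD, n = 3 each), and that of DHX58 to IFIH1 was −0.89 ± 0.156 and −0.24 ± 0.235. For both ratios the groups did not overlap (p = 0.1 in a two-sided exact permutation test, which with 3 libraries against 3 cannot give less). DDX58 and DHX58 thus gained on IFIH1 in each siPVT1 library.

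MAVS, the adaptor shared by RIG-I and MDA5, lies on chromosome 20 from 3846799 to 3876123. It had 3233, 3407 and 3203 normalized counts in siControl and 4882, 4671 and 3683 in siPVT1, with siPVT1 replicate 3 nearest to the controls. The log2 fold change was 0.43 (SE 0.103, adjusted p = 0.00765 in edgeR), a 1.345-fold increase that did not reach the fold threshold. When the libraries were scaled by total count the value was 0.28 and the adjusted p 0.0561.

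TBK1, the kinase that acts after MAVS, STING and TRIF, moved in the opposite direction. The gene lies on chromosome 12 from 64452090 to 64502114, and its normalized counts were 2258, 2028 and 2294 in siControl and 1523, 1450 and 1611 in siPVT1. All siPVT1 libraries were lower and they spread little. The log2 fold change was −0.52 (SE 0.0735, adjusted p = 0.000457 in edgeR), a decrease to 0.697 of the control level. The log2 ratio of TBK1 to MAVS was −0.58 ± 0.145 in siControl and −1.52 ± 0.283 in siPVT1 (SD, n = 3 each), again without overlap (two-sided exact permutation test, p = 0.1).

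TLR3, the endosomal receptor, lies on chromosome 4 from 186068911 to 186088073. Its normalized counts were 214.3, 186.9 and 197.7 in siControl and 118, 96.15 and 131.5 in siPVT1, low in both groups and lower in every siPVT1 library. Among the members tested it had the lowest log2 fold change, −0.79 (SE 0.138, 95% interval −1.11 to −0.47, adjusted p = 0.00143 in edgeR), short of the fold threshold. TLR3 therefore fell in the libraries in which the 3 RIG-I-like receptors rose.

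CGAS encodes the DNA sensor that makes cyclic GMP-AMP, and lies on chromosome 6 from 73413515 to 73452297. Normalized counts were 1117, 1050 and 1066 in siControl and 505.6, 602 and 923.6 in siPVT1. The first and second siPVT1 replicates were near each other, and replicate 3 was just below the controls. The log2 fold change was −0.67 with the widest standard error of the members, 0.193 (adjusted p = 0.0177 in edgeR), and −0.98 without siPVT1 replicate 3 (adjusted p = 3.68e-06). Without siControl replicate 1 or siPVT1 replicate 2 the adjusted p was 0.0546 and 0.0673. ZBP1, the sensor of Z-form nucleic acids that can start cell death, lies on chromosome 20 from 57603846 to 57620576 and had 1, 0 and 2 raw counts in siControl and 1, 3 and 0 in siPVT1. At this depth a difference in ZBP1 was not detectable.

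PKR and ADAR act on double-stranded RNA without MAVS. EIF2AK2, the PKR gene on chromosome 2 from 37099210 to 37157522, had 4272, 4184 and 4161 normalized counts in siControl and 3868, 3907 and 4269 in siPVT1. The groups overlapped because siPVT1 replicate 3 lay among the controls. Its log2 fold change was −0.07 (SE 0.0603, 95% interval −0.21 to 0.07, adjusted p = 0.373 in edgeR), an interval that holds no change as large as that of any RIG-I-like receptor. EIF2AK2 passed the adjusted p without siPVT1 replicate 3 (log2 fold change −0.13, adjusted p = 0.0236) and with scaling by total count (−0.22, adjusted p = 0.0116), both times as lower.

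ADAR, on chromosome 1 from 154581695 to 154628013, had 9935, 9770 and 9868 normalized counts in siControl and 8558, 8640 and 9380 in siPVT1. All siPVT1 libraries were lower, by a small margin in replicate 3. The log2 fold change was −0.15 (SE 0.0578, adjusted p = 0.0491 in edgeR). With 1 library left out at a time ADAR passed the adjusted p only without siPVT1 replicate 3 (adjusted p = 0.00149), and in the other 5 fits the adjusted p was from 0.0631 to 0.124. With no filter on low counts it was 0.112. The log2 ratio of EIF2AK2 to ADAR, −1.23 ± 0.0148 in siControl and −1.14 ± 0.00555 in siPVT1 (SD, n = 3 each), moved by 0.09, so that these genes kept nearly the same proportion to each other although the groups did not overlap (two-sided exact permutation test, p = 0.1).

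**Figure D2:**
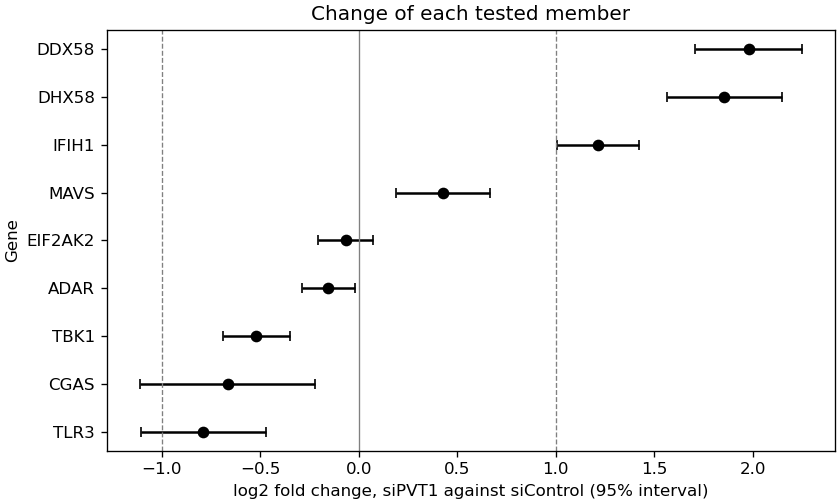
Log2 fold change of siPVT1 against siControl for the 9 tested members, with 95% intervals from edgeR and dashed lines at a 2-fold change in either direction. DDX58, DHX58 and IFIH1 lie beyond the line on the right, and TLR3, CGAS and TBK1 lie between 0 and the line on the left.

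Levels of different genes were compared as CPM, scaled by TMM, per kilobase of merged exons. In siControl the order was ADAR at 25.9 ± 0.218, EIF2AK2 at 12.2 ± 0.17, MAVS at 8.95 ± 0.3, CGAS at 8.29 ± 0.271, TBK1 at 4.79 ± 0.315, DDX58 at 3.86 ± 0.0577, IFIH1 at 1.39 ± 0.0691, DHX58 at 1.03 ± 0.129 and TLR3 at 0.855 ± 0.0591 (SD, n = 3 each). Only DHX58 and TLR3 were neighbours whose libraries overlapped. In siPVT1 DDX58 moved from sixth to second place at 15.2 ± 2.57, below ADAR at 23.2 ± 1.19. The levels of DDX58, MAVS (12 ± 1.75) and EIF2AK2 (11.7 ± 0.643) overlapped from one neighbour to the next, and so did those of CGAS (5.21 ± 1.68), DHX58 (3.72 ± 0.362), TBK1 (3.34 ± 0.175) and IFIH1 (3.22 ± 0.206). TLR3 was lowest of the tested members in both groups. The order depends on the length used, since with the median transcript length in place of merged exons TBK1 came first in siControl, at 80.3.

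**Figure D3:**
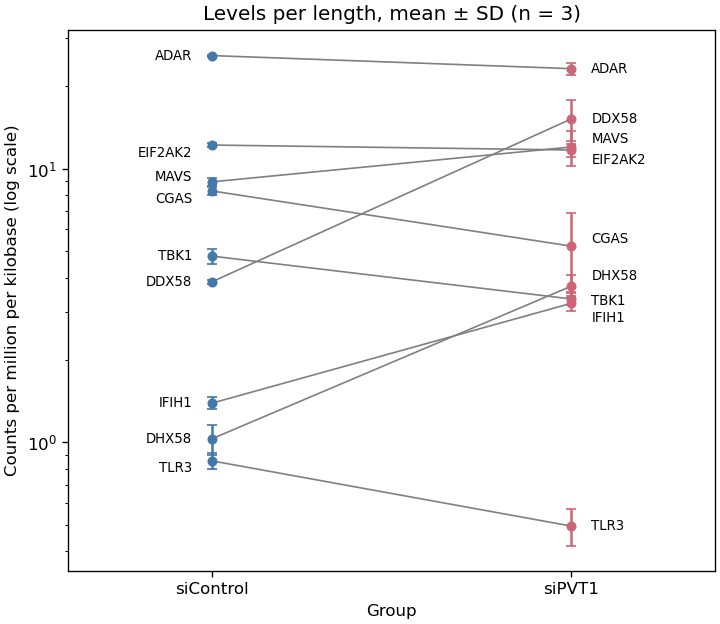
CPM per kilobase (log axis) of the 9 tested members in siControl and siPVT1, as mean with SD of 3 libraries, joined by gene. The line of DDX58 crosses those of TBK1, CGAS, MAVS and EIF2AK2, and the lines of IFIH1 and DHX58 end near that of TBK1.

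The other genes of nucleic acid sensing were taken from lists by function. Among 21 other sensors 18 were tested, 6 were differentially expressed as higher and 0 as lower, and the median log2 fold change was 0.42. These 6 include DDX60, a helicase that aids RIG-I, which rose from 751.9 ± 29.1 to 3488 ± 159 normalized counts (log2 fold change 2.21). OASL, an interferon-induced protein that enhances RIG-I signalling, had a log2 fold change of 4.05. For OAS2, which makes 2-5A, the activator of RNase L, it was 3.52, and for IFIT1, which binds viral 5′ ends, 3.70. The largest of their standard errors was 0.251, and the adjusted p ranged up to 1.07e-05 in edgeR. By the adjusted p alone, 10 of the 18 were higher and 3 lower, beside 29.5% and 28.4% of all tested genes. The 3 lower were DDX60L (log2 fold change −0.60), DHX33 (−0.90) and DHX36 (−0.49), none past the fold threshold. TLR9, among the 18, passed the filter on low counts only through siPVT1 and was not called. The background for the 6 is the 11.8% of all tested genes that were higher by both thresholds.

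Of 18 tested adaptors and kinases that act after the sensors, 2 were differentially expressed, both higher, a share near the 11.8% of all tested genes. By the adjusted p alone 5 were higher and 6 lower, beside 57.9% of all tested genes in either direction, and the median log2 fold change was −0.02. STING1, the adaptor that cyclic GMP-AMP from cGAS activates, rose from 693.3 ± 32.7 to 2913 ± 341 normalized counts (log2 fold change 2.07, standard error 0.0975, adjusted p = 2e-06 in edgeR). UNC93B1, which carries endosomal TLRs to their compartment, had a log2 fold change of 1.63. CGAS was thus lower, without reaching the fold threshold, and its adaptor STING1 was higher. That holds for this pair and not for all sensors of DNA. Of the other sensors listed, IFI16 was at 0.33 (adjusted p = 0.00478 in edgeR) and DDX41 at 0.51 (adjusted p = 0.000343). Both were higher without reaching the fold threshold. TICAM1 (TRIF), the adaptor of TLR3, was at 0.43 (adjusted p = 0.00426), without reaching the fold threshold. IKBKE, the kinase most like TBK1, was at 0.12 (adjusted p = 0.259, and −0.029 with scaling by total count).

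Among the 8 interferon regulatory factors and ISGF3 subunits, all tested, 4 were differentially expressed, each as higher, with a median log2 fold change of 0.91, where 11.8% of all tested genes were higher. Tested directly against a 2-fold change, 1 of the 8 passed, beside 1976 of all 19008 tested genes. IRF9, the DNA-binding subunit of ISGF3, was at 1.30, IRF2 at 1.30, IRF7 at 1.11 and IRF5 at 1.43, the last from low counts of 13.06 ± 2.57 and 35.65 ± 10.3 (SD, n = 3 each). IRF7 was under the fold threshold without siPVT1 replicate 1, at 0.93, and with scaling by total count, at 0.96. IRF3 (log2 fold change 0.50, adjusted p = 0.000652) and STAT2 (0.55, adjusted p = 0.000338) were higher by the adjusted p alone.

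Proteins that modify sensing or remove its ligands gave 4 differentially expressed genes of 22 tested, 3 higher and 1 lower, with a median log2 fold change of −0.02. That is near the share of all tested genes, 21.5%. RNF125, a ubiquitin ligase that marks RIG-I and MDA5 for degradation, fell from 523 ± 18.3 to 160.6 ± 19.6 normalized counts (log2 fold change −1.70, standard error 0.107). ZCCHC3, which helps cGAS and the RIG-I-like receptors to bind nucleic acid, was at 1.25. ISG15, a ubiquitin-like modifier induced by interferon, was at 2.53. SAMHD1, which degrades dNTPs, was at 1.20, and at 0.87 without siPVT1 replicate 3. The adjusted p of these 4 was at most 0.0014 in edgeR.

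Of 13 interferon and chemokine outputs, 2 passed the filter on low counts in both groups, IFIT2 and IFIT3. Both were differentially expressed as higher, where 11.8% of all tested genes were. IFIT2 rose from 219.5 ± 16.6 to 1208 ± 181 and IFIT3 from 465.6 ± 44.8 to 2657 ± 560 normalized counts (SD, n = 3 each), with log2 fold changes of 2.46 and 2.51. Another 4 passed only through the siPVT1 libraries, so the number of them called higher, 3, is no result. The 3 are CXCL10, with 2, 1 and 4 raw counts in siControl and 9, 5 and 16 in siPVT1, RSAD2, with 4, 4 and 3 against 31, 27 and 45, and CCL5, with 4, 5 and 4 against 66, 72 and 67. Interferon-β and the type III interferon IFNL1 were at the floor, with 1, 0 and 1 raw counts of IFNB1 in siControl and 0 in each siPVT1 library, and 1, 0 and 0 of IFNL1 in siControl and 0 in each siPVT1 library. Of the other interferon genes listed, IFNL2, IFNL3 and IFNA1 had 0 counts in every library, and IFNE, with 2, 5 and 1 raw counts in siControl and 3, 5 and 0 in siPVT1, was too low to test.

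**Figure D4:**
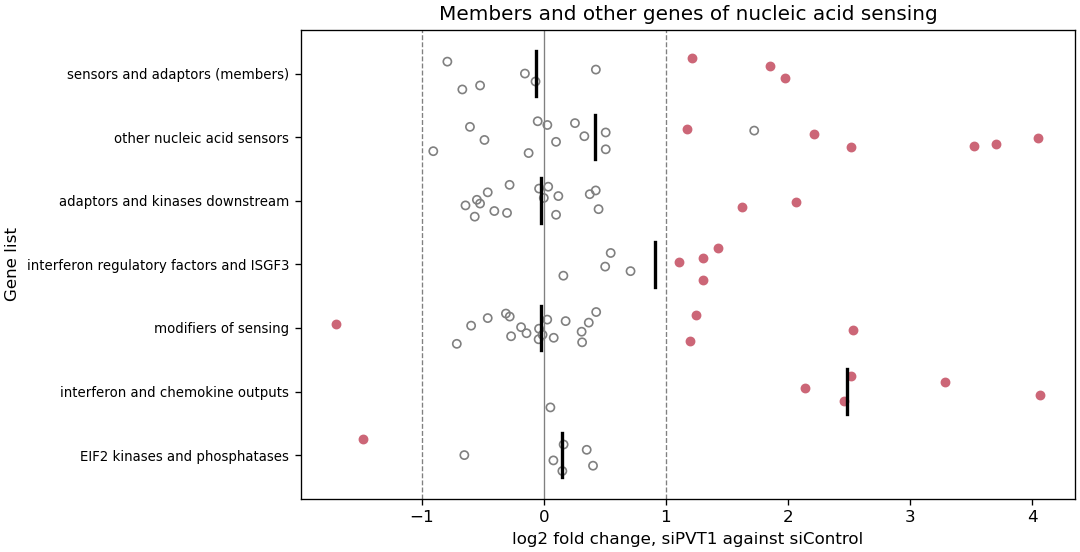
Log2 fold change of siPVT1 against siControl for each tested gene of the members and of the 6 other lists, with filled points for genes past both thresholds, a black bar at the list median and dashed lines at a 2-fold change. The members' filled points are DDX58, DHX58 and IFIH1. Of the 6 outputs drawn, 4 passed the filter only through siPVT1.

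PKR, at −0.07, was set beside a list that holds the other kinases of EIF2. Of these kinases EIF2AK3 was at 0.35 (adjusted p = 0.0105 in edgeR). EIF2AK1 (0.15, adjusted p = 0.0657) and EIF2AK4 (0.08, adjusted p = 0.263) did not pass. Of the 7 genes of the list 1 was differentially expressed, where 21.5% of all tested genes were, 9.64% as lower. That gene was PPP1R15A (GADD34), a phosphatase subunit that restores translation. It fell from 8155 ± 542 to 2929 ± 276 normalized counts (log2 fold change −1.48, standard error 0.0851, adjusted p = 4.95e-06 in edgeR). PPP1R15B, the other such subunit listed, rose from 3806 ± 72.1 to 5035 ± 95.2 (log2 fold change 0.40, adjusted p = 0.000302 in edgeR). It did not reach the fold threshold. By the adjusted p alone 2 of the 7 were higher and 2 lower, near the 57.9% of all tested genes that passed, and the median log2 fold change was 0.15.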

How the data were processed

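The members and lists were chosen with earlier results of these data known. The authors aligned single-end reads of mRNA libraries to GENCODE transcripts of GRCh38.p13 with STAR, and Salmon estimated the counts. What the authors deposited is 1 table of these estimated counts by gene symbol, in whole numbers, not normalized and not pooled. The submitters' processing notes list STAR 2.7.3a and Salmon 0.14.1. The strand setting is not given in the sources used here, so reads of overlapping genes may be shared. All 6 columns were matched to a sample by its description. From these counts differences were tested in edgeR 4.0.16 under R 4.3.3, after TMM scaling, with the siRNA as the only term. The methods used DESeq2, which was an alternative here (1.42.0). Standard errors were derived from the log2 fold change and its F statistic, and 95% intervals use the t distribution. Exact tests were two-sided. Lengths and coordinates came from GENCODE v44, in which all 125 listed genes were found, and start-site sequences from RefSeq. Named genes were all members and PVT1, up to 4 differentially expressed genes of each list by p-value, and IRF3, IRF7, IRF9, STAT2, STING1, TICAM1, IKBKE, IFNB1 and IFNL1. CXCL10, the other interferons and the markers were named after their values were seen. So were IFI16, DDX41, DDX60L, DHX33, DHX36, TLR9, PPP1R15B and the EIF2 kinases other than PKR. Some listed genes are not reported here by name. The tests were tested on simulated data. The alternatives were DESeq2, its size factors, scaling by total count, leaving out the filter or replacing it with filterByExpr, a block for the replicate number, omitting 1 library at a time, a test against a 2-fold change, the adjusted p alone, another gene length and a pseudocount of 0.5.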

Additional observations from a re-analysis of the deposited data

How the results depend on the processing

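The 3 differentially expressed members were the same number in DESeq2, with both other scalings, with no filter, with filterByExpr and in each fit without 1 library. A test against a 2-fold change gave 2, since IFIH1 (log2 fold change 1.21) had an adjusted p of 0.0515. That test gave 1976 genes in all, and 1 of the interferon regulatory factors and ISGF3 subunits. By the adjusted p alone there were 11007 genes, 57.9% of all tested, and 8 of 9 tested members. Added were TLR3 (−0.79), ADAR (−0.15), MAVS (0.43), CGAS (−0.67) and TBK1 (−0.52), and outside the members PVT1 (−0.72). In the lists 13 of 18 other sensors, 11 of 18 adaptors and kinases and 7 of 8 regulatory factors passed. So did 12 of 22 modifiers and 4 of 7 genes of the EIF2 list. Without 1 library, 3 to 5 outputs were called. That number is no result, since 4 of the 6 tested outputs passed the filter on low counts only through siPVT1. The ratio of the highest to the lowest member level in siControl, ADAR to TLR3 at 30.2, was 36.9 (TBK1 to TLR3) with the median transcript length. IKBKE turned to −0.029 with scaling by total count. Over 12 alternatives with the same thresholds, DDX58 ranged from 1.83 to 2.08, DHX58 from 1.71 to 1.92 and IFIH1 from 1.06 to 1.25. Libraries of the same replicate number did not deviate together (correlations of −0.0324, 0.0205 and 0.000856), so the number was not taken as a pairing. With it as a block, 3924 genes and 3 members were called, ADAR had an adjusted p of 0.0877, and the log2 fold changes of the members were from −0.80 for TLR3 to 1.97 for DDX58 (DESeq2 gave 3777 genes). Near-zero counts limit ZBP1 and the interferon genes.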
